A study of Mus musculus with 16 samples.

Results

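The transcripts of 42 genes of the cell cycle were followed in 4 myeloid cell populations sorted from the healing interface between tendon graft and bone after anterior cruciate ligament reconstruction (ACLR) in mice. The genes were taken by symbol from the deposited count table, which lists 20200 genes and holds all 42 of them. They fall into 4 groups by the known role of their products, namely 22 genes of G2 and mitosis, 12 of entry into S phase and replication licensing, 6 of DNA synthesis and nucleotide supply, and the microtubule and chromatin proteins Stmn1 and Hmgb2. All animals were young adult male wild-type C57BL/6 mice that had undergone ACLR with a flexor digitorum longus tendon graft drawn through drilled bone tunnels. CD9+ macrophages were sorted as live, lineage-negative, CD45+, Ly6G-, CD11b+, F4/80+, CD9+ cells. CX3CR1+ macrophages came from the same gate as CX3CR1+, CD9- cells, F4/80- myeloid cells were the CD11b+, Ly6G- cells without F4/80, and neutrophils were sorted as Ly6G+, Ly6C+. Since the CD9+ gate did not use CX3CR1, the rare cells with both markers fall in the CD9+ sort. Each population was taken on day 1 and on day 14 after surgery, with 2 libraries for each of the 8 groups and 16 libraries in all. Each library was made from cells pooled from several mice, so that replicates differ as pools of mice do, and no uninjured tissue was among the bulk samples.

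Progression through the cell cycle is driven by cyclins bound to cyclin-dependent kinases. In G1, D-type cyclins with Cdk4 and Cdk6 phosphorylate the retinoblastoma family of proteins, which releases E2F transcription factors and allows expression of the genes for replication. Cdc6 and Cdt1 load the Mcm2 to Mcm7 helicase on replication origins, and the ribonucleotide reductase subunits, thymidylate synthase and thymidine kinase supply the nucleotides that the polymerases use with the Pcna clamp. Genes of G2 and mitosis are expressed later, through the MuvB complex with B-Myb and Foxm1, and are repressed in resting cells by the DREAM complex. Mature neutrophils and most inflammatory macrophages do not divide, whereas their precursors in the bone marrow do, and some tissue macrophages can proliferate locally.

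The promoter windows of 3 genes of G2 and mitosis and of 3 licensing genes are shown because the results differ between these groups of genes. Each sequence holds the 150 bases just upstream of the RefSeq gene start on assembly GRCm38.p6, read 5′ to 3′ on the strand of the gene, and holds no exon of the Gencode annotation. The Cdc6 window nevertheless lies within the Gencode gene, which starts further upstream at 98907801, and the other windows lie outside their genes. The windows are Mki67 (chr7:135716380-135716529, minus strand), Top2a (chr11:99024190-99024339, minus strand), Ccnb2 (chr9:70421555-70421704, minus strand), Mcm5 (chr8:75109359-75109508, plus strand), Cdc6 (chr11:98908001-98908150, plus strand) and Mcm6 (chr1:128359706-128359855, minus strand). Capitals mark a CCAAT box (CCAAT or its reverse complement ATTGG), a cell cycle genes homology region (CHR, TTTGAA or TTCAAA) or an E2F word (TTTCCCGC, TTTGGCGC, TTTCGCGC or TTTGCCGC, on either strand). E2F words can overlap each other, as 2 of them do in Mcm6.
Mki67: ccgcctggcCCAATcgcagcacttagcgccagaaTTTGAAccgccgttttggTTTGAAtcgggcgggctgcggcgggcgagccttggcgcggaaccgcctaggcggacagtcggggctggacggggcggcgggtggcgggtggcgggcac
Top2a: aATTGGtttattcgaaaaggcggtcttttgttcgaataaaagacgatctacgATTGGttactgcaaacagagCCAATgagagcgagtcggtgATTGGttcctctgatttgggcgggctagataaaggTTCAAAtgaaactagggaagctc
Ccnb2: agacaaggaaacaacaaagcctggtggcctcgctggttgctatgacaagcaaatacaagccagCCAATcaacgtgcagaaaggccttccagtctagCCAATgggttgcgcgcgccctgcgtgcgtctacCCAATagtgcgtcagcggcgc
Mcm5: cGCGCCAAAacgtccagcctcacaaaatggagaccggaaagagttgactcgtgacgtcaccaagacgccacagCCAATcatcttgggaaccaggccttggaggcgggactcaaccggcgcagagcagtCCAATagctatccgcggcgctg
Cdc6: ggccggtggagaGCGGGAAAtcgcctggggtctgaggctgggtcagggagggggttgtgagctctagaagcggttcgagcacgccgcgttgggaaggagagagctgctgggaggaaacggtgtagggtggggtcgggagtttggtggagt
Mcm6: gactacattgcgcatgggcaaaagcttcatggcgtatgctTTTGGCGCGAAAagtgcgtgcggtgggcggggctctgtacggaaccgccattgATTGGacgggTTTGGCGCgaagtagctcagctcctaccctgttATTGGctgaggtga

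The RefSeq promoter table gave a window for 34 of the 42 genes, and all counts of motifs cover the 250 bases upstream of the start. A CCAAT box was present for 16 of the 18 genes of G2 and mitosis with a window (88.9%), compared with 37.5% of the 27025 genes in the promoter table. A CHR was present for 7 of these 18 genes (38.9%), each time together with a CCAAT box, and for 18.3% of all genes. Both motifs stood in 6.45% of all promoters. Of the 9 licensing and S phase entry genes with a window, 5 had a CCAAT box, 1 had a CHR and 4 (44.4%) had an E2F word, which 2.16% of all genes had. Of the 6 genes of DNA synthesis, 4 had a CCAAT box, 1 had an E2F word and 0 had a CHR. Of the 18 genes of G2 and mitosis, 1 had an E2F word. These matches describe letters in a window and do not show that a factor binds there.

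The total counts of the libraries ranged from 9233952 to 19814119. CPM are counts scaled to a common library size with TMM factors (trimmed means of M values), except in the filter, where they were scaled by library size alone. All 42 genes passed this filter, set at a group mean of 3 CPM in 1 or more groups, as did 11998 of the 20200 genes. The lowest count of any of the 42 genes in a library was 9, for Gins2 in neutrophils on day 14. The 2 libraries of CD9+ macrophages on day 1 were the least alike, and on day 14 replicate 1 of this population was above replicate 2 for 41 of the 42 genes. The summed CPM of 6 macrophage and monocyte markers were highest in CX3CR1+ macrophages, at 2854 to 3188, against 1109 to 2164 in CD9+ macrophages, 479 to 540.1 in F4/80- myeloid cells and 196 to 640.4 in neutrophils. Markers of other cells were also present in some sorts. The 7 markers of immature myeloid cells (Mpo, Elane, Prtn3, Ctsg, Ms4a3, Cd34 and Kit) summed to 2239 to 3027 CPM in F4/80- myeloid cells on both days, 593 to 902 on day 1 and 1190 to 1978 on day 14 in CD9+ macrophages, 127 to 289 in CX3CR1+ macrophages and 111 to 212 in neutrophils, where Cd34 was at 0 on day 14. The 6 markers of basophils and mast cells summed to 971 to 1898 CPM in F4/80- myeloid cells, and the 6 markers of eosinophils to 6153 to 9953 CPM in CD9+ macrophages on day 14. The 6 neutrophil markers summed to 16976 to 27336 CPM in neutrophils, 4326 to 5470.2 CPM in F4/80- myeloid cells and 412 to 2627 CPM in the macrophage sorts. The part of these cells in the differences described next was not tested.

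Proliferation transcripts were highest in F4/80- myeloid cells for most of the 42 genes and lowest in neutrophils for nearly all of them. On day 1, F4/80- myeloid cells had the highest mean CPM for 32 genes and CD9+ macrophages for 10, and on day 14 for 35 and 7 genes. All of the genes that were highest in CD9+ macrophages belonged to G2 and mitosis, among them Ccnb1, Cdc20, Aurka, Cenpf, Plk1 and Ube2c on both days. With scaling by library size alone, 9 of the 10 genes of day 1, all but Plk1, turned to higher values in F4/80- myeloid cells than in CD9+ macrophages. Neutrophils had the lowest mean for 41 genes on day 1 and for 39 on day 14, and CX3CR1+ macrophages for the others. The summed CPM of the 42 genes, in which abundant transcripts such as Mki67 weigh most, lay between 9319 and 9322 in F4/80- myeloid cells on day 1, between 6266 and 7889 in CD9+ macrophages, between 5509 and 5661 in CX3CR1+ macrophages and between 2067 and 2989 in neutrophils. On day 14 the sums were 11087 to 11406, 7203 to 9662, 5136 to 5775 and 3458 to 3792 CPM in the same order. On either day these ranges stayed apart from each other, but with library size scaling the day 1 sums of CD9+ macrophages, 7935 and 5603 CPM, overlapped those of CX3CR1+ macrophages, 6505 and 6044 CPM. In pooled, sorted cells, fewer dividing cells and less transcript in each dividing cell cannot be told apart.

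Mki67, which encodes the Ki-67 protein of the mitotic chromosome surface and marks cycling cells, lies at chr7:135689784-135716361 (mm10) and was measured at 2719 and 2744 CPM in F4/80- myeloid cells on day 1 and at 3126 and 3386 CPM on day 14. In CD9+ macrophages it was at 2298 and 1516 CPM and then 2842 and 1990.4 CPM, and in CX3CR1+ macrophages at 1583 and 1662 CPM and then 1756 and 1587 CPM. The neutrophil libraries held 687 and 494 CPM on day 1 and 944 and 833 CPM on day 14, below every library of the other populations. Top2a (chr11:98992943-99024189) encodes the topoisomerase that untangles sister chromatids. Its levels in F4/80- myeloid cells were 679 and 664 CPM on day 1 and 919 and 969 CPM on day 14, and the day 1 libraries of CD9+ macrophages, at 701 and 620.5 CPM, overlapped with them. CX3CR1+ macrophages had 532 and 520.2 CPM of Top2a on day 1 and 519.8 and 484 CPM on day 14, and neutrophils 208 and 135 CPM and then 307 and 279 CPM. Neutrophils were again lowest, with levels that did not overlap between the days. Ccnb1 (chr13:100778650-100786570), the B-type cyclin that drives entry into mitosis, had another order. It was at 57.1 and 40.6 CPM in CD9+ macrophages on day 1, 41.2 and 33.4 CPM in CX3CR1+ macrophages, 40.4 and 41.3 CPM in F4/80- myeloid cells and 12.3 and 10.4 CPM in neutrophils. On day 14 the values were 48.4 and 41.1, 29.4 and 25.1, 31.1 and 37.8, and 19.8 and 15.5 CPM in the same order of populations. The libraries of the 3 other populations overlapped for Ccnb1 on day 1, and only the neutrophils stood apart from all of them.

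The replication genes separated the populations further. Pcna (chr2:132249162-132253314), the sliding clamp of the replicative polymerases, was at 142 and 135 CPM in F4/80- myeloid cells on day 1, 111 and 85.5 CPM in CD9+ macrophages, 71.5 and 70.1 CPM in CX3CR1+ macrophages and 35.1 and 46.1 CPM in neutrophils. On day 14 the levels were 176 and 154, 114 and 93.3, 91.9 and 80.3, and 30.4 and 26.8 CPM in that order. The 4 populations did not overlap on day 1, and on day 14 only the lower CD9+ library and the higher CX3CR1+ library came close to each other. Mcm5 (chr8:75109569-75128439), a subunit of the replicative helicase, was at 208 and 237 CPM in F4/80- myeloid cells on day 1 and 271 and 257 CPM on day 14. Its level was 120.4 and 153 CPM, then 177 and 116 CPM in CD9+ macrophages and 93.1 and 93.9 CPM, then 93.1 and 87.2 CPM in CX3CR1+ macrophages. Neutrophils had 33.2 and 23.3 CPM, then 34.1 and 24.3 CPM of Mcm5 on the 2 days. F4/80- myeloid cells were thus above, and neutrophils below, each library of the other populations on both days.

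The comparison of F4/80- myeloid cells with CX3CR1+ macrophages set CD11b+ cells without F4/80 beside F4/80+ cells that were also CX3CR1+ and CD9-. The 2 sorts thus differed in more than F4/80. On day 1, 14 of the 42 genes were called, all of them higher in F4/80- myeloid cells, where 10.9% of all genes tested were called higher. Calls required an adjusted p under 0.05 in edgeR's quasi-likelihood test and a fold change of at least 1 in either direction on the log2 scale. The calls comprised 10 of the 12 licensing and S phase entry genes (median log2 fold change 1.28, range 0.82 to 2.48), 4 of the 6 DNA synthesis genes (median 1.50) and 0 of the 22 genes of G2 and mitosis (median 0.26, range -0.24 to 0.75). In the latter group 7 genes had an unadjusted p under 0.05, DESeq2 called 0 as well, and the median of all genes tested was 0.00. Ccne2, the E-type cyclin that activates Cdk2 at the start of S phase, was at 85.3 and 76.3 CPM in F4/80- myeloid cells and 16.6 and 12.4 CPM in CX3CR1+ macrophages, a log2 difference of 2.48 (standard error 0.28, adjusted p = 4.7e-06). Cdc6, which loads the helicase, was at 75.1 and 79.5 against 21.1 and 18.7 CPM, a log2 difference of 1.96 (standard error 0.21, adjusted p = 3.1e-06). Rrm2, the regulated subunit of ribonucleotide reductase, was at 308 and 320.0 against 82.1 and 79.6 CPM (log2 fold change 1.96, standard error 0.21, adjusted p = 3.1e-06). These 3 transcripts were several times higher in both F4/80- libraries. The other genes with the lowest adjusted p were Uhrf1, which maintains DNA methylation behind the replication fork, at 1.73 (standard error 0.17, adjusted p = 1.2e-06), thymidine kinase Tk1 at 1.61 (standard error 0.20, adjusted p = 1.3e-05) and the helicase subunit Mcm4 at 1.29 (standard error 0.15, adjusted p = 7.7e-06). Among the genes given above, the log2 difference was 1.25 (standard error 0.21, adjusted p = 2.0e-04) for Mcm5, 0.97 (standard error 0.16, adjusted p = 2.3e-04) for Pcna, 0.75 (standard error 0.21, adjusted p = 0.011) for Mki67 and 0.35 (standard error 0.18, adjusted p = 0.14) for Top2a. Ccnb1 was at 0.13 (standard error 0.19, adjusted p = 0.64). The markers of immature myeloid cells, at 2239 to 3026 CPM in these F4/80- libraries and 127 to 192 CPM in the CX3CR1+ libraries, moved with this difference, and their part was not tested.

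On day 14 the same comparison gave 20 genes, all of them higher in F4/80- myeloid cells, where 10.4% of all genes tested were higher. All 12 licensing and S phase entry genes were called, with log2 fold changes from 1.15 to 2.44, as were 5 of the 6 DNA synthesis genes, Stmn1 and Hmgb2. Of the 22 genes of G2 and mitosis 1 was called, although all 22 had positive values, from 0.30 to 1.06. This gene was Cdk1, the kinase of mitotic entry, at 83.2 and 83.5 CPM in F4/80- myeloid cells and 44.3 and 35.5 CPM in CX3CR1+ macrophages, a log2 difference of 1.06 (standard error 0.16, adjusted p = 8.0e-05). Among the helicase subunits, Mcm2 was at 211 and 215 against 59.7 and 50.6 CPM, a log2 difference of 1.95 (standard error 0.23, adjusted p = 6.2e-06). Mcm6 differed by 1.76 (standard error 0.21, adjusted p = 9.0e-06) and Mcm7 by 1.51 (standard error 0.18, adjusted p = 9.8e-06). Thymidylate synthase, Tyms, was at 67.5 and 66.6 against 26.8 and 19.8 CPM (log2 fold change 1.52, standard error 0.21, adjusted p = 4.0e-05), and the large subunit of ribonucleotide reductase, Rrm1, differed by 1.38 (standard error 0.21, adjusted p = 8.1e-05). Stmn1, which destabilizes microtubules, was at 137 and 142 against 61.4 and 48.6 CPM (log2 fold change 1.34, standard error 0.20, adjusted p = 6.3e-05). Hmgb2, a chromatin protein abundant in dividing and immature cells, was at 1082 and 1091 against 557 and 456 CPM (log2 fold change 1.10, standard error 0.21, adjusted p = 7.4e-04). The 7 markers of immature myeloid cells summed to 3009 to 3027 CPM in these F4/80- libraries and 205 to 289 CPM in the CX3CR1+ libraries, and their part in these differences was not tested.

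**Figure D1:**
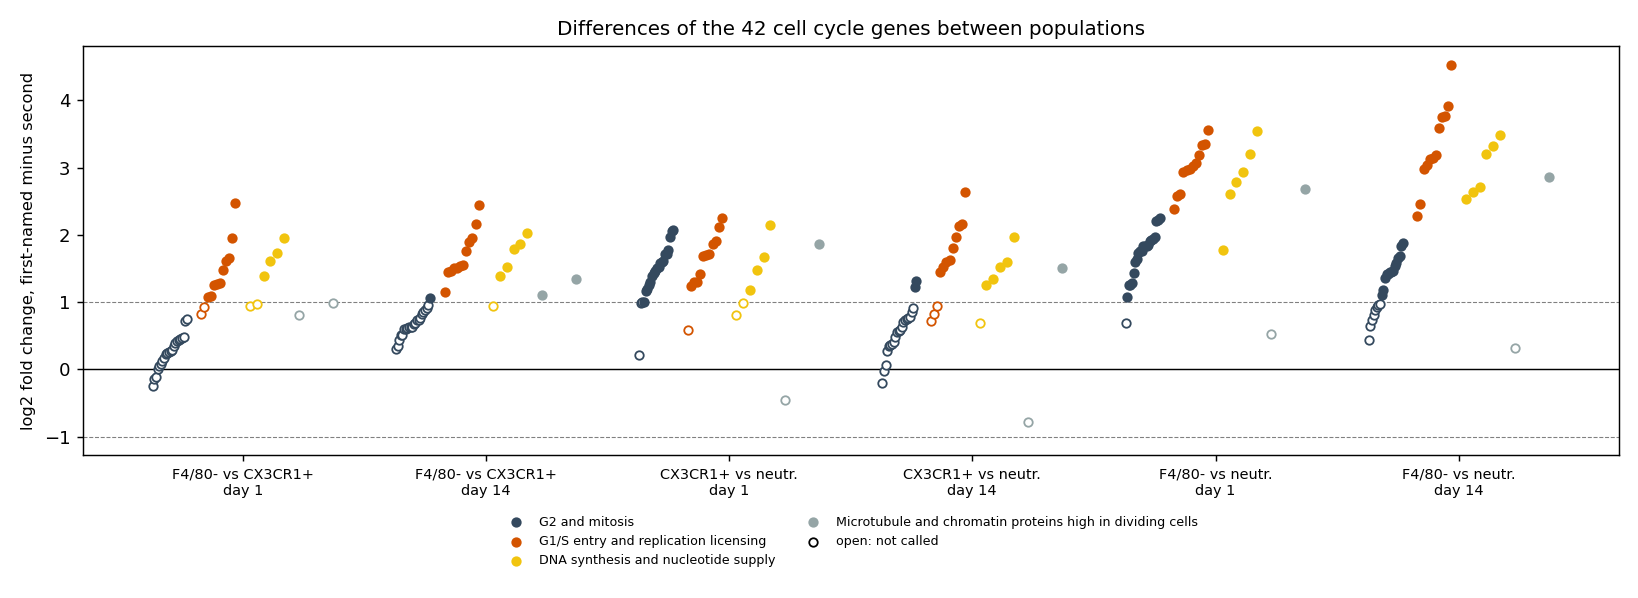
Log2 fold changes (vertical axis) of the 42 genes in 6 comparisons between populations, 1 point a gene, coloured by role, with called genes filled, other genes open and dashed lines at the fold threshold. For F4/80- myeloid cells against CX3CR1+ macrophages on day 14, all 12 licensing genes lie between 1.15 and 2.44 and the 22 genes of G2 and mitosis between 0.30 and 1.06.

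F4/80- myeloid cells and CD9+ macrophages differed in fewer genes. On day 1, 3 of the 42 genes were called higher in F4/80- myeloid cells, where 6.16% of all genes tested were, and on day 14, 3 were called, where 1.11% of all genes were. Cdc6 and Ccne2 were called on both days. Cdc6 was at 22.9 and 31.9 CPM in CD9+ macrophages on day 1 and 42.4 and 27.5 CPM on day 14, against 75.1 and 79.5 CPM, then 72.4 and 68.5 CPM in F4/80- myeloid cells. The log2 difference was 1.50 (standard error 0.21, adjusted p = 8.7e-05) on day 1 and 1.01 (standard error 0.21, adjusted p = 0.0037) on day 14. Ccne2 was at 33.7 and 18.8 CPM, then 43.0 and 30.2 CPM in CD9+ macrophages and differed by 1.61 (standard error 0.27, adjusted p = 4.3e-04) and 1.25 (standard error 0.27, adjusted p = 0.0051). Rrm2 was called on day 1 (log2 fold change 1.04, standard error 0.20, adjusted p = 0.0016) and Gins2, a part of the active helicase, on day 14 (log2 fold change 1.05, standard error 0.31, adjusted p = 0.04). No gene of G2 and mitosis was called on either day by edgeR or DESeq2, 2 on day 1 and 0 on day 14 having an unadjusted p under 0.05, and 12 of the 22 values were positive on day 1 (21 with scaling by library size alone), whereas all 12 licensing genes and all 6 DNA synthesis genes had positive values. These counts depended on single CD9+ libraries. Without replicate 1 of CD9+ macrophages 6 genes were called on day 1 and 8 on day 14, without replicate 2 of day 14 the count was 0, and with scaling by library size alone 10 genes were called on day 1 and 5 on day 14.

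Between the 2 macrophage populations, 1 of the 42 genes was called higher in CD9+ macrophages on day 1, where 6.36% of all genes tested were, and 4 on day 14, where 9.65% were. The share of the 42 genes called was thus near or below that of all genes. Mcm2, called on both days, was at 106 and 113 CPM in CD9+ and 59.4 and 46.1 CPM in CX3CR1+ macrophages on day 1 and at 132 and 88.3 against 59.7 and 50.6 CPM on day 14. The log2 fold changes were 1.06 (standard error 0.22, adjusted p = 0.0043) and 1.00 (standard error 0.22, adjusted p = 0.0033). The libraries did not overlap on either day, and the day 14 call of Mcm2 was lost with library size scaling, without a filter, with filterByExpr, with the replicate block, without CD9+ replicate 1 and without CX3CR1+ replicate 2. On day 14, Rrm2 at 232 and 165 against 81.1 and 76.4 CPM (log2 fold change 1.33, standard error 0.21, adjusted p = 2.0e-04), Cdc6 (log2 fold change 1.15, standard error 0.22, adjusted p = 9.3e-04) and Ccne2 (log2 fold change 1.18, standard error 0.28, adjusted p = 0.0051) were also called. All 42 genes had positive values on day 14, with a median of 0.71 and a range of 0.27 to 1.33, while the median of all genes tested was 0.01. The fold threshold weighed on this count, since 27 of the 42 genes, 13 of them of G2 and mitosis, had an adjusted p under 0.05, as 26.3% of all genes tested did. Mki67 (log2 fold change 0.53, standard error 0.21, adjusted p = 0.076), Top2a (log2 fold change 0.64, standard error 0.18, adjusted p = 0.015), Ccnb1 (log2 fold change 0.72, standard error 0.20, adjusted p = 0.015), Mcm5 (log2 fold change 0.70, standard error 0.21, adjusted p = 0.02) and Pcna (log2 fold change 0.27, standard error 0.16, adjusted p = 0.26) were not called. On day 1, 21 of the 22 genes of G2 and mitosis had positive values, but 12 of 22 with scaling by library size alone, under which, as with upper quartile scaling, Mcm2 was no longer called. The day 1 count was 3 without CD9+ replicate 1, 4 without CD9+ replicate 2 and 0 without CX3CR1+ replicate 2. The day 14 count was 1 and 8 without CD9+ replicate 1 and 2, and 7 and 2 without CX3CR1+ replicate 1 and 2. The eosinophil markers at 6153 to 9953 CPM in the CD9+ libraries of day 14, against 47.2 to 80.8 CPM in the CX3CR1+ libraries, stand beside these values. The immature myeloid markers summed to 593 to 902 CPM in CD9+ against 127 to 192 CPM in CX3CR1+ macrophages on day 1 and to 1190 to 1978 against 205 to 289 CPM on day 14. Markers of basophils and mast cells stood at 269 to 343 against 0.61 to 1.67 CPM on day 14. The part of these cells in the differences was not tested.

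In comparison with neutrophils, most of the 42 genes were higher in each of the other populations on day 1. The number called was 40 in CD9+ macrophages, where 27.9% of all genes tested were called higher, 35 in CX3CR1+ macrophages, where 26.9% were, and 40 in F4/80- myeloid cells, where 26.4% were. All calls were of higher levels. Only Kif23 and Hmgb2 were not called in CD9+ macrophages and in F4/80- myeloid cells. On day 14 the numbers were 36 in CD9+ macrophages, where 29.6% of all genes were called higher, 17 in CX3CR1+ macrophages, where 27.1% were, and 33 in F4/80- myeloid cells, where 27.4% were. The TMM factors were 0.752 to 0.781 in the neutrophil libraries and 0.897 to 1.16 in the others, and scaling by library size alone in their place moved the median of all genes in these comparisons by 0.33 to 0.61 on the log2 scale. Under library size scaling the count in CX3CR1+ macrophages on day 14 was 32, and the other 5 counts against neutrophils moved by less than 1.5 times.

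The genes of replication accounted for the highest differences from neutrophils. Mcm3 was at 260.1 and 286 CPM in F4/80- myeloid cells on day 1 and 34.3 and 19.2 CPM in neutrophils, a log2 difference of 3.34 (standard error 0.25, adjusted p = 2.3e-08). Mcm5 differed by 2.97 (standard error 0.22, adjusted p = 2.7e-08), the E-type cyclin Ccne1 by 3.02 (standard error 0.30, adjusted p = 4.7e-07) and Pcna by 1.77 (standard error 0.17, adjusted p = 2.8e-07). On day 14, Cdt1, the partner of Cdc6 in licensing, was at 86.7 and 82.9 against 11.9 and 7.62 CPM (log2 fold change 3.13, standard error 0.33, adjusted p = 8.3e-07), and the transcription factor gene E2f1 was at 42.8 and 47.0 against 11.4 and 7.1 CPM (log2 fold change 2.28, standard error 0.29, adjusted p = 5.8e-06). All 12 licensing genes were called against neutrophils in CD9+ macrophages and F4/80- myeloid cells on both days. In CX3CR1+ macrophages, 11 were called on day 1 and 9 on day 14. The median log2 fold change of the licensing genes in F4/80- myeloid cells was 2.99 on day 1 and 3.17 on day 14, and that of the DNA synthesis genes 2.86 and 2.96.

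Genes of G2 and mitosis were called against neutrophils on day 1 for 21 of 22 genes in CD9+ macrophages, 19 in CX3CR1+ macrophages and 21 in F4/80- myeloid cells. In CD9+ macrophages, Kif20a, a kinesin of cytokinesis, was at 124 and 121 CPM against 36.3 and 24.8 CPM in neutrophils (log2 fold change 2.0, standard error 0.16, adjusted p = 6.3e-08). Ccnb1 differed by 2.10 (standard error 0.21, adjusted p = 5.0e-07) and Cdc20, the activator of the anaphase-promoting complex, by 1.72 (standard error 0.18, adjusted p = 1.0e-06). In CX3CR1+ macrophages, the spindle checkpoint kinase Bub1 was at 41.4 and 38.3 against 14.2 and 8.86 CPM (log2 fold change 1.78, standard error 0.22, adjusted p = 3.4e-06), survivin, Birc5, differed by 1.97 (standard error 0.27, adjusted p = 9.4e-06) and the centromeric histone Cenpa by 1.26 (standard error 0.17, adjusted p = 1.2e-05). Bub1b, a further checkpoint protein, differed by 1.83 (standard error 0.15, adjusted p = 4.8e-08) in F4/80- myeloid cells, and the cyclins Ccnb2 and Ccna2 by 1.72 (standard error 0.14, adjusted p = 7.1e-08) and 1.83 (standard error 0.16, adjusted p = 1.0e-07). These populations all lay well above the neutrophils of the same day.

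On day 14 fewer genes of G2 and mitosis were called against neutrophils, namely 17 of 22 in CD9+ macrophages, 2 in CX3CR1+ macrophages (median 0.58) and 14 in F4/80- myeloid cells (median 1.39). With library size scaling these numbers were 21, 13 and 22, the same as on day 1 in CD9+ macrophages and F4/80- myeloid cells. The 2 genes in CX3CR1+ macrophages were Aurkb, the kinase of the chromosomal passenger complex, at 54.6 and 45.4 CPM against 20.0 and 20.2 CPM in neutrophils (log2 fold change 1.32, standard error 0.23, adjusted p = 1.3e-04), and Bub1b (log2 fold change 1.23, standard error 0.15, adjusted p = 2.4e-06). In CD9+ macrophages, Aurkb (log2 fold change 1.66, standard error 0.23, adjusted p = 1.5e-05), the spindle assembly factor Tpx2 (log2 fold change 1.31, standard error 0.20, adjusted p = 4.4e-05) and the centromeric kinesin Cenpe (log2 fold change 1.34, standard error 0.21, adjusted p = 4.7e-05) were called. In F4/80- myeloid cells, Top2a (log2 fold change 1.69, standard error 0.18, adjusted p = 1.1e-06), Mki67 (log2 fold change 1.87, standard error 0.22, adjusted p = 2.1e-06) and the spindle kinesin Kif11 (log2 fold change 1.46, standard error 0.17, adjusted p = 2.5e-06) were called, while Ccnb1 was at 0.97 (standard error 0.21, adjusted p = 7.2e-04). The 12 licensing genes had a median of 1.61 in CX3CR1+ macrophages on day 14.

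Hmgb2 and Kif23 departed from the other genes and were singled out after their values were seen. Hmgb2 was at 824 and 504 CPM in neutrophils on day 1 and 872 and 878 CPM on day 14, against 496 and 470.1 CPM, then 557 and 456 CPM in CX3CR1+ macrophages. In CX3CR1+ macrophages against neutrophils its log2 difference was -0.46 (standard error 0.21, adjusted p = 0.063) on day 1, where library size scaling turned it to 0.12, and -0.79 (standard error 0.21, adjusted p = 0.004) on day 14. Kif23, a kinesin of the central spindle, was at 83.1 and 83.7 CPM in neutrophils on day 1, against 97.6 and 95.7 CPM in CX3CR1+ macrophages. Its log2 difference of 0.21 (standard error 0.15, adjusted p = 0.21) was the lowest of the 22 genes of G2 and mitosis in that comparison.

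The ratio of G2 and mitosis transcripts to replication transcripts differed among the populations as well. The summed CPM of the 22 genes of G2 and mitosis were divided by the summed CPM of the 18 genes of licensing and DNA synthesis in each library. This ratio was 2.18 and 2.10 in F4/80- myeloid cells on day 1 and 2.13 and 2.28 on day 14. It was 3.57 and 2.73, then 3.20 and 3.18 in CD9+ macrophages, and 3.83 and 4.15, then 3.74 and 3.84 in CX3CR1+ macrophages. Neutrophils had ratios of 4.44 and 4.14, which became 6.03 and 7.11 on day 14. F4/80- myeloid cells had the lowest ratios, neutrophils on day 14 the highest, and the only overlap between populations within a day was that of CX3CR1+ macrophages and neutrophils on day 1. Abundant transcripts weigh most in these sums. Mki67 had a mean of 2732 CPM, beside a mean G2 and mitosis sum of 5640 CPM, in F4/80- myeloid cells on day 1. In neutrophils on day 14 these means were 889 and 2366.5 CPM. The share of cells in each phase was not measured. With 2 libraries a group, an exact two-sided permutation test cannot give a p below 0.333 for such a ratio, and none was run.

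**Figure D2:**
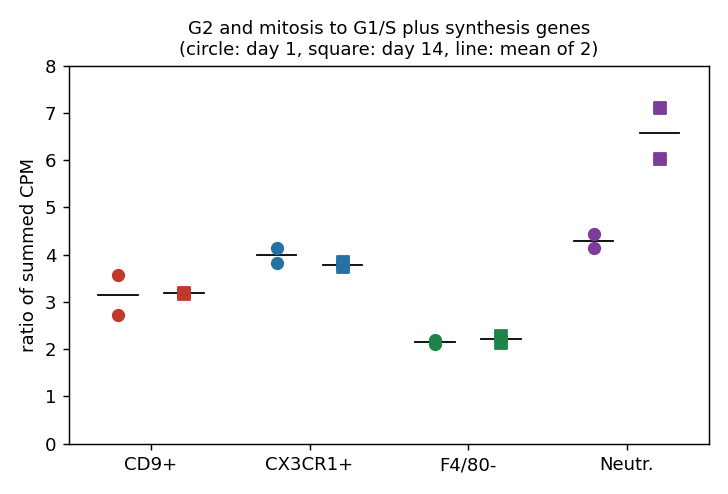
Ratio of the summed CPM of 22 genes of G2 and mitosis to that of 18 genes of licensing and DNA synthesis in each library, by population, with circles for day 1, squares for day 14 and lines at the mean of 2 libraries, on a linear axis from 0. The ratio was 2.10 to 2.28 in F4/80- myeloid cells and 6.03 to 7.11 in neutrophils on day 14.

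The labels do not say whether cells of the 2 days were sorted and prepared together. A difference in preparation could not be told apart from a change over time, here and in the later comparisons of the days. Total counts were 10587857 to 19814119 on day 1 and 9233952 to 12721779 on day 14. From day 1 to day 14 no population had a gene among the 42 that was called by edgeR's quasi-likelihood test. At the same threshold 8.23% of all genes tested were called in either direction in CD9+ macrophages, 5.86% in CX3CR1+ macrophages, 3.25% in F4/80- myeloid cells and 14.1% in neutrophils. At an unadjusted p under 0.05, without a fold threshold, the 42 genes gave 5, 4, 10 and 24 genes in these populations, where 31.8%, 26.3%, 19.9% and 38.6% of all genes passed. The DESeq2 test called 0, 0, 0 and 1 gene, the last being Kif11. In CD9+ macrophages 1 gene was called without replicate 1 of day 1, namely Ube2c, and 1 without replicate 2 of day 1, namely Cdt1. In CD9+ macrophages 34 of the 42 genes had positive values, with a median of 0.19, and in F4/80- myeloid cells 36, with a median of 0.25. In CX3CR1+ macrophages 17 had positive values, with a median of -0.04. There 18 of the 22 genes of G2 and mitosis had negative values, with a median of -0.19, while 8 of the 12 licensing genes had positive values. With library size scaling 2 of the 22 genes had positive values. Kif23 (log2 fold change 0.65, standard error 0.15, adjusted p = 0.0072) and Mcm6 (log2 fold change 0.64, standard error 0.21, adjusted p = 0.043) had an adjusted p under 0.05 in CD9+ macrophages below the fold threshold. They were the only 2 of the 42 genes to do so, where 17.7% of all genes tested had an adjusted p under 0.05.

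In neutrophils all 22 genes of G2 and mitosis had positive values below the fold threshold, from 0.45 to 0.97 with a median of 0.64, whereas the 12 licensing genes had a median of 0.03 and the 6 DNA synthesis genes one of 0.13. Without the fold threshold, 11.5% of all genes tested had an adjusted p under 0.05 and were higher on day 14, as were 16 of the 42 genes. Kif11 was at 74.4 and 49.0 CPM on day 1 and 127 and 115 CPM on day 14, a log2 difference of 0.97 (standard error 0.17, adjusted p = 6.7e-04). Cdc20 was at 19.9 and 15.0 CPM and then 31.8 and 35.4 CPM (log2 fold change 0.94, standard error 0.19, adjusted p = 0.0015). For both genes the libraries of the 2 days did not overlap. Top2a (log2 fold change 0.77, standard error 0.18, adjusted p = 0.0051), Mki67 (log2 fold change 0.59, standard error 0.21, adjusted p = 0.049), Ccnb1 (log2 fold change 0.63, standard error 0.21, adjusted p = 0.041) and Kif23 (log2 fold change 0.69, standard error 0.15, adjusted p = 0.0029) had smaller positive values, and Pcna had a negative value (log2 fold change -0.51, standard error 0.17, adjusted p = 0.041). Gins2, singled out after its values were seen, had the lowest value (log2 fold change -1.19, standard error 0.46, adjusted p = 0.069) on 46 and 15 counts on day 1 and 9 and 10 counts on day 14. The 2 neutrophil libraries of day 1 differed, replicate 1 lying above replicate 2 for 38 of the 42 genes. The counts that follow show only how far the calls depend on single libraries. The share of all genes called in those fits was not determined. Without replicate 1 of day 1, 11 genes were called, namely Top2a, Ccnb2, Cdk1, Cdc20, Aurkb, Bub1, Birc5, Cenpa, Kif11, Plk1 and E2f1. Without replicate 2 of day 1, 1 gene was called (Gins2), and without replicate 1 or 2 of day 14, 1 (Cdc20) or 3 (Ccna2, Kif11 and E2f1). The macrophage and monocyte markers summed to 639.8 to 640.4 CPM on day 1 and to 196 to 198 CPM on day 14 in these sorts, and their part was not tested.

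**Figure D3:**
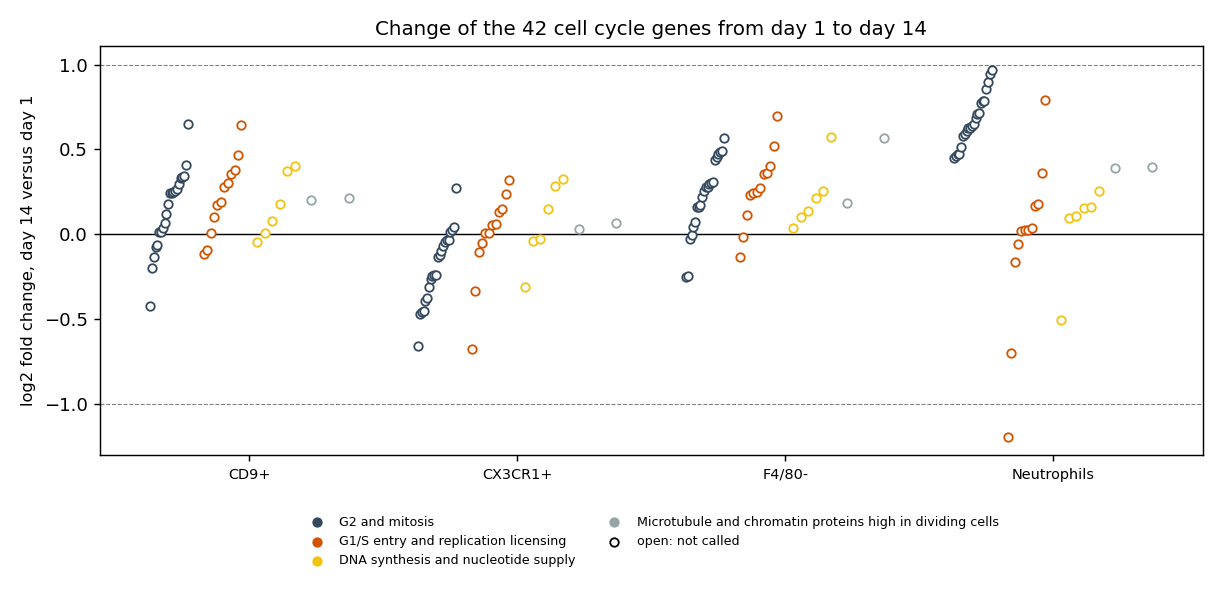
Log2 fold changes from day 1 to day 14 (vertical axis) of the 42 genes in each population, 1 point a gene, coloured by role, all open because none was called, with dashed lines at the fold threshold. All 22 genes of G2 and mitosis lie above 0 in neutrophils, with a median of 0.64.

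Whether the changes over time differed between populations was tested as an interaction term. None of the 42 genes was called for CD9+ against CX3CR1+ macrophages, where 2.28% of all genes tested were called, for F4/80- myeloid cells against CX3CR1+ macrophages, where 1.01% were, or for F4/80- myeloid cells against neutrophils, where 7.73% were, and DESeq2 called 0 in each. At an unadjusted p under 0.05 the edgeR test gave 1, 5 and 7 genes, where 16.2%, 9.95% and 24.4% of all genes passed. All 22 genes of G2 and mitosis had positive values in the comparisons with CX3CR1+ macrophages and negative values in F4/80- myeloid cells against neutrophils, with a median of -0.44 in the latter. Of the 42 genes only Cdc20 had an adjusted p under 0.05 there, at -0.90 (standard error 0.25, adjusted p = 0.034), as 10.8% of all genes tested did. Without CD9+ replicate 1 of day 1, 2 genes were called for CD9+ against CX3CR1+ macrophages. Without neutrophil replicate 1 or 2 of day 1, 3 and 1 were called for F4/80- myeloid cells against neutrophils.

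A further list of 50 cell cycle genes, including regulators such as Foxm1, mitotic kinesins and replication factors, was measured beside the 42. On day 1, 18 of the 50 were called higher in F4/80- myeloid cells than in CX3CR1+ macrophages, and on day 14, 27 were, against 10.9% and 10.4% of all genes tested. Mybl2, which encodes B-Myb, was at 53.1 and 62.2 against 19.0 and 13.0 CPM on day 1, a log2 difference of 1.85 (standard error 0.21, adjusted p = 5.0e-06), and 2.13 (standard error 0.22, adjusted p = 1.6e-06) on day 14. Cdc45, a part of the active helicase, differed by 1.61 (standard error 0.21, adjusted p = 2.3e-05) on day 1, the E2F repressor E2f7 by 1.46 (standard error 0.20, adjusted p = 3.6e-05), and DNA ligase Lig1 by 1.87 (standard error 0.19, adjusted p = 2.1e-06) on day 14. Against neutrophils 49, 41 and 50 of the 50 were called higher on day 1 in CD9+ macrophages, in CX3CR1+ macrophages and in F4/80- myeloid cells, and 43, 19 and 47 on day 14. Of all genes tested, 27.9%, 26.9% and 26.4% were called higher in these comparisons on day 1 and 29.6%, 27.1% and 27.4% on day 14. In CD9+ against CX3CR1+ macrophages 1 was called on day 1, the origin recognition subunit Orc1 (log2 fold change 1.21, standard error 0.35, adjusted p = 0.029), and 5 on day 14, where 6.36% and 9.65% of all genes tested were called higher. Over time 5 were called in neutrophils, all higher on day 14, where 3.15% of all genes tested were called higher. Among them were Kif22 (log2 fold change 1.20, standard error 0.21, adjusted p = 6.0e-04), Melk (log2 fold change 1.09, standard error 0.21, adjusted p = 0.0011) and Racgap1 (log2 fold change 1.02, standard error 0.14, adjusted p = 8.7e-05), whose products act in mitosis or cytokinesis.

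Replication-dependent histones are made in S phase, and their near-identical copies share reads, so that the value of a single histone gene is uncertain. Of 16 tested histone genes, 4 were called higher on day 14 than on day 1 in CD9+ macrophages, where 4.75% of all genes were, 1 in CX3CR1+ macrophages, where 2.39% were, 8 in F4/80- myeloid cells, where 1.01% were, and 6 in neutrophils, where 3.15% were. Hist1h4c was at 60.0 and 64.8 CPM on day 1 and 256 and 202 CPM on day 14 in F4/80- myeloid cells, a log2 difference of 1.88 (standard error 0.24, adjusted p = 2.8e-04). In neutrophils it was at 25.9 and 16.5 CPM, then 70.0 and 64.4 CPM (log2 fold change 1.66, standard error 0.25, adjusted p = 1.8e-04), in CD9+ macrophages it changed by 1.72 (standard error 0.24, adjusted p = 2.8e-04) and in CX3CR1+ macrophages by 1.14 (standard error 0.24, adjusted p = 0.0054). The 2 days did not overlap in any population for this gene. Transcripts of these histones mostly lack a poly(A) tail, and how far the library kit captures them was not tested.

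Upstream of the E2F targets, the drivers of G1 were also higher in F4/80- myeloid cells than in CX3CR1+ macrophages, for 6 of 10 genes on day 1 and 7 of 10 on day 14, beside 10.9% and 10.4% of all genes tested. Ccnd2, a D-type cyclin, was at 24.1 and 29.4 CPM in F4/80- myeloid cells and 1.98 and 5.07 CPM in CX3CR1+ macrophages on day 1 (log2 fold change 2.94, standard error 0.37, adjusted p = 1.5e-05). Cdk6 was at 166 and 213 against 40.5 and 52.0 CPM (log2 fold change 2.04, standard error 0.17, adjusted p = 2.6e-07), and the phosphatase Cdc25a, which activates Cdk2, differed by 2.85 (standard error 0.25, adjusted p = 4.8e-07) and by 3.30 (standard error 0.26, adjusted p = 1.7e-07) on day 14. Cdk2 differed by 1.62 (standard error 0.19, adjusted p = 7.2e-06) on day 14. Against neutrophils, 5 of the 10 drivers were called higher in F4/80- myeloid cells on day 1 and 6 on day 14, beside 26.4% and 27.4% of all genes tested. The D-type cyclins had different patterns. Ccnd1 was at 0.6 and 0.702 CPM in neutrophils on day 1 and 0.723 and 0.206 CPM on day 14, and at 4.74 and 5.12 CPM, then 4.97 and 4.18 CPM in CX3CR1+ macrophages. Ccnd3 was highest in neutrophils, at 437 and 328 CPM, then 532 and 559.5 CPM, against 267 and 292 CPM, then 291 and 299 CPM in F4/80- myeloid cells. With library size scaling the day 1 log2 difference of Ccnd3 between F4/80- myeloid cells and neutrophils turned from -0.45 to 0.16. Over time, Cdk6 rose in CD9+ macrophages from 75.6 and 83.5 to 186 and 175 CPM (log2 fold change 1.18, standard error 0.17, adjusted p = 2.9e-04), as did the growth regulator Myc (log2 fold change 1.02, standard error 0.23, adjusted p = 0.0064). In the same libraries the eosinophil markers went from 542 to 593 CPM on day 1 to 6153 to 9953 CPM on day 14 and the immature myeloid markers from 593 to 902 CPM to 1190 to 1978 CPM, and their part was not tested. Cdk4 fell in neutrophils from 10.1 and 13.4 to 4.22 and 2.98 CPM (log2 fold change -1.71, standard error 0.24, adjusted p = 8.8e-05).

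Most inhibitors of the cycle lay the other way between F4/80- myeloid cells and neutrophils. Of 11 tested inhibitors and members of the retinoblastoma family, 7 were called lower and 2 higher in F4/80- myeloid cells on day 1. Of all genes tested, 22.6% were called lower and 26.4% higher in that comparison. On day 14, 6 were called lower and 3 higher, where 21.3% of all genes were called lower and 27.4% higher. These counts rest on TMM factors. Library size scaling moved the median of all genes in this comparison up by 0.61 on day 1 and 0.56 on day 14. On day 1 it turned Rbl2 from -0.33 to 0.28 and Rb1 from -0.05 to 0.56. Cdkn1b, which encodes the Cdk inhibitor p27, was at 258 and 271 CPM in neutrophils on day 1 and 256 and 265 CPM on day 14. F4/80- myeloid cells had 71.9 and 69.7 CPM, then 89.7 and 93.5 CPM of it, log2 fold changes of -1.90 (standard error 0.11, adjusted p = 3.7e-09) and -1.51 (standard error 0.11, adjusted p = 2.6e-08). The other populations were also below the neutrophils for Cdkn1b. Cdkn1a, which encodes the p53 target p21, was at 237 and 286 CPM in neutrophils on day 1 and fell to 14.0 and 13.6 CPM on day 14 (log2 fold change -4.24, standard error 0.17, adjusted p = 5.8e-10). It also fell in CD9+ macrophages, from 135 and 168 to 44.7 and 56.0 CPM (log2 fold change -1.59, standard error 0.15, adjusted p = 1.2e-05), while the values were -0.72 (standard error 0.15, adjusted p = 0.0047) in CX3CR1+ macrophages and -0.71 (standard error 0.15, adjusted p = 0.011) in F4/80- myeloid cells. Cdkn2c, an inhibitor of Cdk4 and Cdk6 known as p18, rose in F4/80- myeloid cells (log2 fold change 1.17, standard error 0.26, adjusted p = 0.013) and in neutrophils (log2 fold change 1.04, standard error 0.29, adjusted p = 0.014). Compared with CX3CR1+ macrophages, 4 inhibitors were lower in F4/80- myeloid cells on day 1, where 10.2% of all genes were, and 3 on day 14, where 11.1% were. They included Cdkn1a (log2 fold change -1.50, standard error 0.15, adjusted p = 1.5e-06) and the antiproliferative genes Btg2 (log2 fold change -1.40, standard error 0.12, adjusted p = 2.9e-07) and Btg1 (log2 fold change -1.76, standard error 0.19, adjusted p = 2.8e-06) on day 1.

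The members of the retinoblastoma family differed in how far they departed from the neutrophil level. Rbl1, which encodes p107 and is itself an E2F target, was at 111 and 132 CPM in F4/80- myeloid cells on day 1 against 35.5 and 25.6 CPM in neutrophils, a log2 difference of 1.99 (standard error 0.20, adjusted p = 5.0e-07), and 2.14 (standard error 0.20, adjusted p = 2.5e-07) on day 14. Rb1 was at 86.2 and 80.5 against 83.3 and 88.7 CPM on day 1 and was not called in this comparison on either day (log2 fold change -0.05 with an adjusted p of 0.8, then 0.00 with an adjusted p of 0.99). Rbl2 had log2 fold changes of -0.33 on day 1 and -0.52 on day 14, below the fold threshold. With library size scaling these values became 0.56 and 0.57 for Rb1 and 0.28 and 0.04 for Rbl2. Of 8 genes of the DREAM complex and its E2F partners, 1 was called higher in F4/80- myeloid cells than in CX3CR1+ macrophages on each day, as were 10.9% and 10.4% of all genes tested. This was Tfdp1, the dimer partner of the E2F proteins, at 181 and 182 against 47.3 and 42.5 CPM on day 1 (log2 fold change 2.01, standard error 0.22, adjusted p = 4.0e-06) and with 2.06 (standard error 0.22, adjusted p = 3.1e-06) on day 14.

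**Figure D4:**
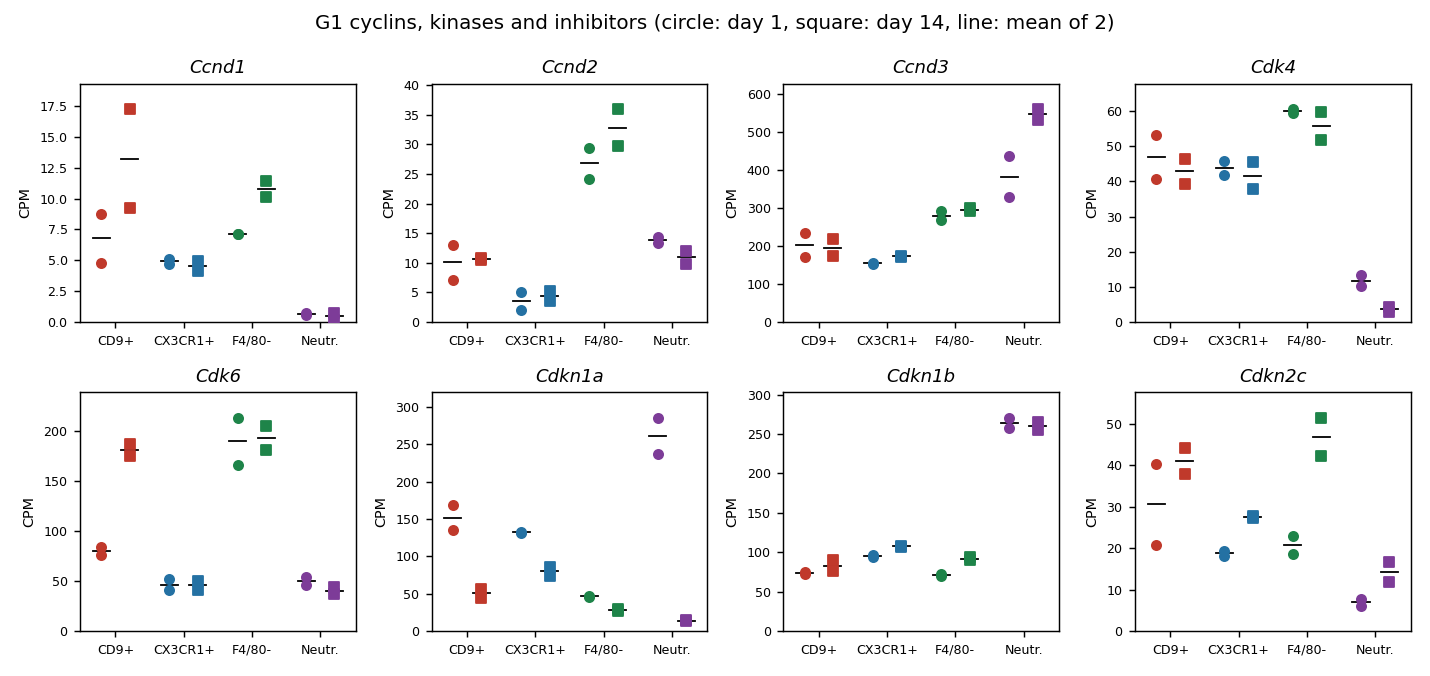
CPM in each library (circles for day 1, squares for day 14) and the mean of the 2 libraries (lines) of G1 drivers and cell cycle inhibitors by population and day, on linear axes that start at 0. Cdkn1a in neutrophils fell from 237 and 286 CPM on day 1 to 14.0 and 13.6 CPM on day 14.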

How the data were processed

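Bulk RNA-seq was performed on 16 libraries of 4 sorted populations on days 1 and 14. Per the study's methods, RNA from pooled animals was made into SMART-Seq Stranded libraries, which were processed with Cutadapt for adapters and STAR for alignment to mm10. The authors deposited raw counts of reads on the exons of each Gencode M23 gene, without normalization. No batch is given in the labels, and the smallest total of a listed gene was 17 counts.

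From the counts, 11998 genes with a mean of at least 3 CPM (scaled by library size alone) in at least 1 group were tested, with TMM factors, by the quasi-likelihood method of edgeR 4.0.16 in R 4.3.3, with 1 mean for each group, no covariate and Benjamini-Hochberg adjustment over all genes tested, and a biological coefficient of variation of 0.178. A call required an adjusted p under 0.05 and at least 1 log2 unit of change in either direction. Standard errors were computed from the F statistic. The 42 genes, the lists and the markers were chosen with earlier results of these data known. Per role and comparison, the 3 called genes with the lowest adjusted p not yet described were named, beside Mki67, Top2a, Ccnb1, Pcna and Mcm5, with up to 3 called genes of each other list and fixed G1 genes. The alternatives were DESeq2 1.42.0, its size factors, other scalings, other filters, a replicate block and leaving out each library. The steps were tested on simulated data. Promoters were taken from RefSeq (GRCm38.p6), gene positions from the deposited counts and the exons near promoters from Gencode M21. Counting error only is covered by the depth, since reads without molecular identifiers are not independent molecules. Cdkn2a was not analysed here, and neither were the single-cell data.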

Additional observations from a re-analysis of the deposited data

Results flagged for a closer look

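For 8 tests the change from day 1 to day 14 differed between 2 populations at an adjusted p under 0.05 in an interaction term of the edgeR model. Of all genes tested, 2.84% passed this for CD9+ against CX3CR1+ macrophages. For F4/80- myeloid cells, 1.17% passed against CX3CR1+ macrophages and 10.8% against neutrophils. Of the 42 genes only Cdc20 passed, whose change in F4/80- myeloid cells was below that in neutrophils (log2 difference -0.90, standard error 0.25, adjusted p = 0.034). It was at 51.5 and 57.4 CPM on day 1 and 57.4 and 54.8 CPM on day 14 in F4/80- myeloid cells. Of the other cell cycle genes, Anln (log2 difference -0.84, standard error 0.22, adjusted p = 0.021) and Hmmr (log2 difference -0.94, standard error 0.28, adjusted p = 0.044), both with products on the cytoskeleton of dividing cells, differed between the same populations in the same direction.

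Cdk4 changed by -0.10 in F4/80- myeloid cells and by -1.71 in neutrophils, a log2 difference of 1.61 (standard error 0.30, adjusted p = 0.0028). For Cdkn1a the difference between these populations was 3.53 (standard error 0.23, adjusted p = 5.0e-07), and for the stress gene Gadd45b it was 1.24 (standard error 0.30, adjusted p = 0.015). Between CD9+ and CX3CR1+ macrophages, the change of Cdk6 differed by 1.21 (standard error 0.24, adjusted p = 0.012) and that of Cdkn1a by -0.87 (standard error 0.21, adjusted p = 0.038). Cdk6 was at 75.6 and 83.5 CPM and then 186 and 175 CPM in CD9+ macrophages and at 40.5 and 52.0 CPM, then 41.0 and 49.9 CPM in CX3CR1+ macrophages.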

How the results depend on the processing

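Of the 246 calls of single genes among the 42, none changed sign under any alternative run. The runs were DESeq2, its size factors, library size and upper quartile scaling, no filter, filterByExpr, a replicate block and leaving out each library. A call requires at least 1 log2 unit of change, so that a change of sign was unlikely from the start. Each alternative other than leaving out a library lost 1 to 3 of the 246 calls. For neutrophils over time, 1 gene (Kif11) was called with the DESeq2 test, with DESeq2 size factors, without a filter and with filterByExpr. For CD9+ against CX3CR1+ macrophages on day 1, library size and upper quartile scaling gave 0. With library size scaling, F4/80- myeloid cells against CD9+ macrophages gave 10 on day 1 and 5 on day 14, and CX3CR1+ macrophages against neutrophils 32 on day 14. The summed CPM of the 42 genes then had means of 6275 and 5999 in CX3CR1+ macrophages on days 1 and 14, 10748 and 12808 in F4/80- myeloid cells, and 2797 in neutrophils on day 14. Library size scaling moved the median of all genes by up to 0.61 on the log2 scale in these comparisons, and the cause was not tested.

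Leaving out single libraries, where the remaining library was assumed to vary like the other groups, gave 0 to 1 calls over time in CD9+ macrophages, 0 to 0 in CX3CR1+ macrophages and F4/80- myeloid cells, and 1 to 11 in neutrophils. On day 1 it gave 0 to 4 for CD9+ against CX3CR1+ macrophages, 13 to 16 and 3 to 6 for F4/80- myeloid cells against CX3CR1+ and CD9+ macrophages, and 38 to 40, 32 to 38 and 39 to 40 for CD9+ macrophages, for CX3CR1+ macrophages and for F4/80- myeloid cells against neutrophils. On day 14 the ranges were 1 to 8, 18 to 24, 0 to 8, 32 to 37, 17 to 21 and 33 to 35 in the same order. The interactions gave 0 to 2, 0 to 0 and 0 to 3.

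The labels do not say that libraries with the same replicate number share mice, and the deviations of such libraries correlated by 0.0132 to 0.144. With the replicate block 37 genes were called for CX3CR1+ macrophages against neutrophils on day 1, 34 for CD9+ macrophages against neutrophils on day 14 4 for F4/80- myeloid cells against CD9+ macrophages on day 14, and 4 for CD9+ against CX3CR1+ macrophages on day 14, with Mcm6 in place of Mcm2. The depth limits Gins2 most, with 9 and 10 counts in neutrophils on day 14. The 2 libraries a group also limit what can be called.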
